A study of Mus musculus with 16 samples.

Results

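Retinas of wildtype mice aged 18 months (n = 4) were compared with retinas of Elovl2 mutant mice aged 12 months (n = 3), which makes 7 of the 16 RNA-seq libraries in the series. The libraries were chosen by their labels for age and genotype alone. The comparison asks where normal ageing and the Elovl2 mutation differ from each other, without using the wildtype retinas at 12 months as the common baseline. Age and genotype both differ between the groups, so their effects cannot be told apart here.

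The 18-month animals were uninjected wildtype C57BL6/J mice, and the 12-month mutants carry a cysteine-to-tryptophan substitution in Elovl2, which the series design writes as C234W and the genotype labels as C34W. The libraries were made from whole retina by poly(A) selection. Wildtype retinas at 12 months (n = 3) entered the fit only to estimate the spread, and their values are given for part of the genes. The remaining 6 libraries came from 18-month retinas injected with the fatty acid 24:5 or with vehicle. Zygosity, sex and litter are not in the labels. Nor do the labels state that different libraries came from different animals, and the p-values given reflect variation between libraries, some of which may be technical.

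ELOVL2 lengthens polyunsaturated fatty acids in the endoplasmic reticulum, and the chains it makes are the precursors of docosahexaenoic acid (DHA). Photoreceptor outer segments are among the membranes richest in DHA, and methylation of the Elovl2 promoter increases with age. Elovl2 mutant mice are used for this reason as a model of an ageing retina. The letters of both codons are shown because the labels disagree on the position of the substitution. The capitals mark the codon within coding bases of the GENCODE M21 transcript (GRCm38).
Elovl2 codon 34: ttcctgctggacTCTtaccttcccacc
Elovl2 codon 234: ttcccctttggcTGTctcatcttccag
Codon 34 is in exon 3 of 8, at chr13:41194800-41194802 on the minus strand, and its letters do not encode cysteine. Codon 234 is in exon 7, at chr13:41186916-41186918, and is a cysteine codon. The substitution itself cannot be read from a table of expression levels.

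The deposited values are FPKM (fragments scaled to the gene's length and the library's depth), and whole reads could be recovered from them. Depth was 12810558 to 15909796 reads in the 18-month libraries and 14988833 to 30519417 in the mutants. Xist was present and the Y-linked genes Ddx3y, Eif2s3y, Kdm5d and Uty were at 0 in all 10 uninjected libraries. Libraries within each group fell apart by Malat1, a nuclear RNA. It was at 229 and 235 FPKM in 18-month replicates 2 and 3 and at 142 and 150 FPKM in replicates 1 and 4. Among mutants it was at 307 FPKM in replicate 1 and at 130 and 108 FPKM in replicates 2 and 3. The group means of Malat1 were 189 ± 49.6 FPKM (SD, n = 4) and 182 ± 109 FPKM (SD, n = 3; exact permutation test, p = 0.9714). Rpe65, a pigment epithelium enzyme, was at 21.8, 7.95, 11.3 and 22.3 FPKM in 18-month replicates 1 to 4 and at 12.8 to 15.1 FPKM in mutants. Differences within the high-Malat1 libraries (2 wildtype, 1 mutant) and within the low-Malat1 libraries (2 and 2) are therefore given beside the main results. For a gene whose groups do not overlap, both differences must have the sign of the main one. Their sign is then no support for that gene.

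No single gene set the 2 groups apart after adjustment in the main fit, which with so few libraries does not show that they were alike. By limma on log2(FPKM + 1), 0 of 13786 genes tested passed an adjusted p of 0.05, and the smallest adjusted p was 0.727. At an unadjusted p under 0.05 there were 143 genes higher (1.04% of genes tested) and 152 lower (1.1%) at 18 months, 295 in all (2.14%). The count was 750 with the Malat1 split as a term and 1368 with libraries weighted by quality. Those weights were uneven, at 0.41, 3.86 and 1.22 for mutant replicates 1 to 3. The highest was 5.76, for 12-month wildtype replicate 1. In 289 genes (2.1%) every 18-month library was above every mutant library, and in 327 genes (2.37%) every one was below. Only 35 splits into groups of these sizes exist, so without any difference 1 gene in 35 would be expected to separate in each direction. Both shares were below that. The 2.14% at an unadjusted p under 0.05 was also below the share which that threshold gives without any difference. Part of the genes named below were chosen for such separation, so it does not count as support for them. Over all genes tested, 7335 differences were positive and 6451 negative, with a median of 0.0064 log2.

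On the recovered reads edgeR called 0 genes, with 246 (1.78%) at an unadjusted p under 0.05, and DESeq2 called 9 (0.0653% of 13784). The 9 were Slc15a2, Tmem267, Racgap1, mt-Tg, mt-Nd3 and mt-Tr, which were higher at 18 months, and Gabra2, Etv4 and Gm21742, which were lower. With only these 2 groups in the fit, limma called 2 genes, mt-Tr and mt-Tg (0.0145%). The plot of all genes shows how few lie far from 0.

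**Figure D1:**
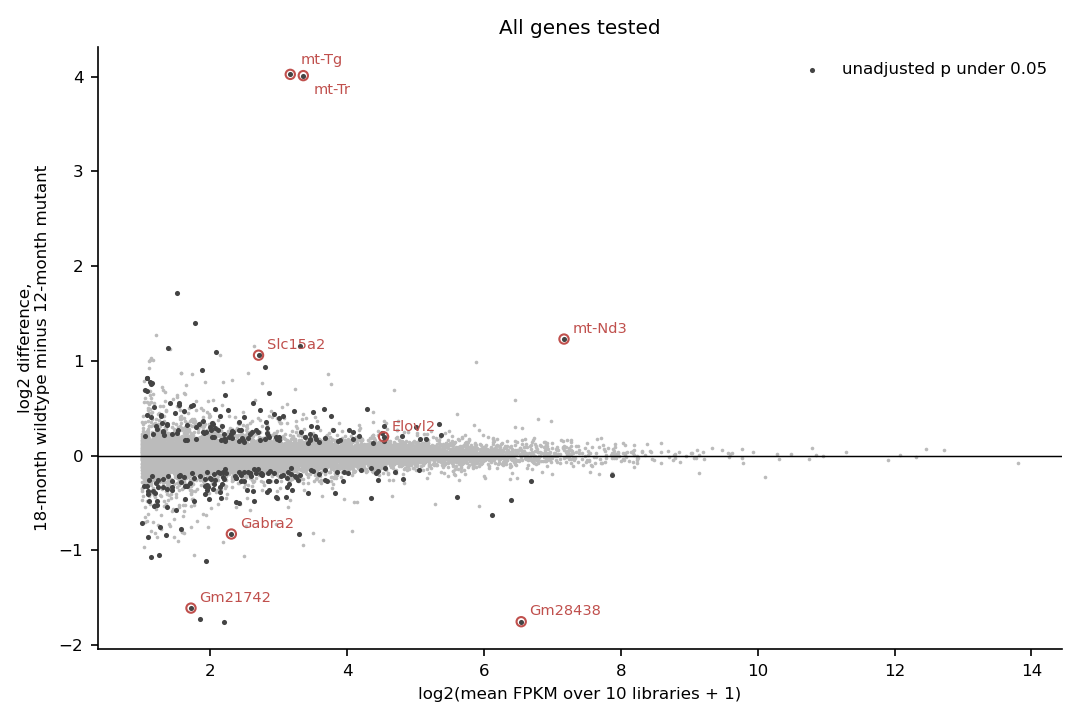
Each point is 1 of 13786 genes: its mean level over the 10 uninjected libraries (x axis, log2 of FPKM + 1) against the log2 difference of 18-month wildtype minus 12-month mutant (y axis). Dark points have an unadjusted p under 0.05, and named genes are circled. mt-Tg and mt-Tr lie near 4 and Gm28438 at -1.75, while most genes lie close to 0.

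The largest differences were in mt-Tg and mt-Tr, the outer genes of a run of 3 adjacent mitochondrial genes. mt-Tg and mt-Tr encode the mitochondrial transfer RNAs for glycine and arginine, and mt-Nd3, between them, encodes a subunit of complex I of the respiratory chain. They lie at chrMT:9391-9458 (mt-Tg), chrMT:9459-9806 (mt-Nd3) and chrMT:9808-9875 (mt-Tr), all on the plus strand. The libraries were poly(A)-selected, so reads over transfer RNA genes, here and below, do not measure the mature transfer RNAs. Because the genes adjoin, a read can also span neighbours. The sequences of both transfer RNA genes are shown because reads over these short genes carry the largest differences. They and the mt-Nd3 sequences further down are from GENCODE M21 (GRCm38).
mt-Tg: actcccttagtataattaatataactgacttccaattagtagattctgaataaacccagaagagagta
mt-Tr: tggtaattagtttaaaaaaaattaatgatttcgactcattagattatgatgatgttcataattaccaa

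mt-Tg had 10, 13, 26 and 18 reads in the 4 libraries at 18 months and 0, 0 and 0 in the mutants. Every 18-month library was above every mutant library. Against a floor of 3 reads over the mutant group, the level relative to all reads was at least 23.7-fold higher at 18 months. This bound pools the reads of each group and leaves out variation between libraries. By limma the log2 difference was 4.02 (SE 0.68), with an adjusted p of 0.727, against 0.000898 with only the 2 groups and 0.00739 by DESeq2. Over 17 alternative settings its adjusted p ranged from 0.000898 to 1.

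mt-Tr had 14, 15, 28 and 17 reads at 18 months and 0, 1 and 0 in the mutants, again without overlap. From 74 reads against 1, the ratio of levels was 78.7, with an exact 95% counting interval of 13.7 to 3149. The interval covers counting error only. Its limma log2 difference was 4.01 (SE 0.63, adjusted p = 0.727), against an adjusted p of 0.000898 with only the 2 groups and 0.0164 by DESeq2. Its adjusted p ranged from 0.000898 to 1 over 17 alternatives.

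mt-Nd3 was at 218, 173, 217 and 179 FPKM at 18 months and at 56.0, 90.1 and 113 FPKM in mutants. The groups did not overlap, and the means were 197 ± 23.9 (SD, n = 4) and 86.2 ± 28.5 FPKM (SD, n = 3), a ratio of 2.28. On the log2 scale limma put the difference at 1.23 (SE 0.27, adjusted p = 1), against an adjusted p of 0.0127 by DESeq2. Within the high-Malat1 libraries the difference was 1.77 and within the low-Malat1 libraries 0.97.

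A near-identical copy of mt-Nd3 lay lower at 18 months. Gm28438, an unprocessed pseudogene, is a nuclear copy of mitochondrial DNA at chr1:24612775-24613119 on the minus strand. Over the 345 positions compared, the copy differs from mt-Nd3 by 1 substitution, T3C (mt-Nd3 base first, positions counted from 1 at the first base of the gene), at chrMT position 9461. The first 30 bases of both are shown with that base in capitals, since a read that does not cover it cannot be assigned to either gene by sequence.
mt-Nd3: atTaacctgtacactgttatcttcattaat
Gm28438: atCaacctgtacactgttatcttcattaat

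Gm28438 was at 63.4, 36.5, 41.7 and 56.7 FPKM at 18 months and at 145, 182 and 171 FPKM in mutants. Every mutant library was above every 18-month library, with means of 166 ± 19.1 FPKM (SD, n = 3) and 49.6 ± 12.6 FPKM (SD, n = 4). Its log2 difference by limma was -1.75 (SE 0.49, adjusted p = 1). The sum of mt-Nd3 and Gm28438 was 246 ± 30.7 FPKM at 18 months and 252 ± 44.9 FPKM in mutants, with overlap (exact permutation test, two-sided p = 0.8571, 0.9714 after adjustment over 5 such tests). mt-Nd3 made up 80.0 ± 3.83% of that sum at 18 months and 33.5 ± 5.92% in mutants, without overlap. The exact permutation test gave p = 0.0571, the smallest that 35 splits allow, and 0.2855 after the same adjustment. mt-Nd3 was named for its separation, and Gm28438 was chosen after its opposite separation was seen. The share had to separate as well, so this p was fixed by the choice and is no support. Levels of the 2 genes taken singly are uncertain, because the deposited counting could divide their reads.

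The wildtype libraries at 12 months did not share 1 pattern in this region. Replicate 1 had 0 mt-Tg reads, 1 mt-Tr read and Gm28438 at 162 FPKM, within or near the mutant values. Replicates 2 and 3 had 6 and 18 mt-Tg reads, 20 and 9 mt-Tr reads, and Gm28438 at 33.998 and 31.1 FPKM, near the 18-month values. Without replicate 1 in the fit, limma called 3 genes between the 18-month and mutant groups: mt-Tr, mt-Tg and Gm28438. The region therefore varies among libraries of the same age and genotype.

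Other mitochondrial transcripts differed less in size. Gm10222, another copy of mitochondrial DNA beside Gm28438, was at 28.7 to 42.9 FPKM at 18 months and 46.3 to 56.7 FPKM in mutants, lower without overlap (log2 -0.51, SE 0.24). Of 13 mitochondrial messenger RNAs, 9 were higher and 4 lower at 18 months, with a median of 0.04 log2, and mt-Nd3 was the only one without overlap. This tally turned to 2 higher and 11 lower without mutant replicate 1 and to 6 and 7 without 18-month replicate 1. Within the split, 12 of 13 were higher in the high-Malat1 set, which has 1 mutant library, and 6 of 13 in the low-Malat1 set. Among 21 ribosomal and transfer RNAs tested, 9 were higher and 12 lower (median -0.14), against 14 higher and 7 lower without mutant replicate 2 (median 0.19). In the high-Malat1 set 13 of 21 were higher, and in the low-Malat1 set 16 of 21 were lower. Neither list therefore had a direction that held across libraries. mt-Tn, the transfer RNA for asparagine, was at 40.4 to 75.7 FPKM at 18 months and 80.9 to 89.5 FPKM in mutants, lower without overlap (log2 -0.63, SE 0.26, unadjusted p = 0.0374). mt-Tc, for cysteine, was at 64.1 to 93.8 and 78.7 to 111 FPKM, with overlap (log2 -0.46, SE 0.20, unadjusted p = 0.0398). Mitochondrially encoded genes took 3.81 ± 0.414% of reads at 18 months and 3.75 ± 0.390% in mutants, a difference smaller than the spread within either group.

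**Figure D2:**
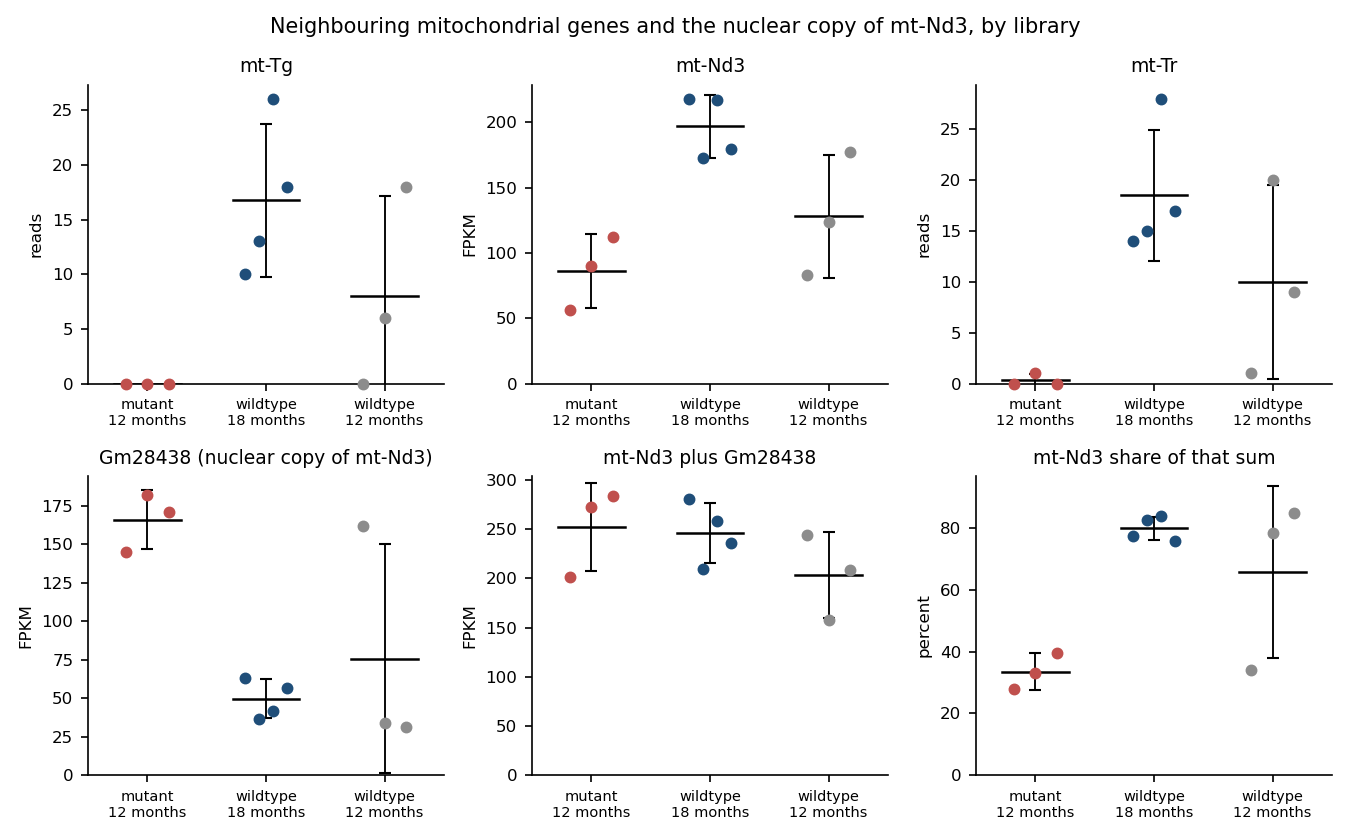
Each point is 1 library, lines are group means and bars ± 1 SD, for 3 mutants at 12 months, 4 wildtypes at 18 months and 3 wildtypes at 12 months. The y axes give reads (mt-Tg, mt-Tr), FPKM (mt-Nd3, Gm28438 and their sum) or percent. The first 2 groups do not overlap in any panel except that of the sum, and the 12-month wildtype libraries lie near one range or the other for mt-Tg, Gm28438 and the share.

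Gabra2 encodes the alpha-2 subunit of the GABA-A receptor, the chloride channel through which GABA inhibits retinal neurons. It lies at chr5:70957597-71095849. Its level was 1.93, 2.34, 2.06 and 2.33 FPKM at 18 months, and 5.56, 5.09 and 3.42 FPKM in mutants. All 18-month libraries were below all mutant libraries, with means of 2.17 ± 0.204 FPKM (SD, n = 4) and 4.69 ± 1.12 FPKM (SD, n = 3), 2.16-fold apart. The limma log2 difference was -0.83 (SE 0.13, adjusted p = 0.727), and the adjusted p was 0.208 by edgeR and 7e-07 by DESeq2. Over 17 alternatives it ranged from 7e-07 to 1, and the log2 difference from -1.12 to -0.71. Within the high-Malat1 libraries the difference was -1.03, and within the low-Malat1 libraries -0.73.

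The 12-month wildtype libraries had Gabra2 at 4.86, 6.13 and 5.85 FPKM, in or above the mutant range. In bulk tissue, fewer cells that express a gene and less of its RNA per cell cannot be told apart, here and for the genes that follow. Other inhibitory receptor subunits did not share the direction. Of 19 GABA-A and glycine receptor genes tested, 14 were higher and 5 lower at 18 months, with a median of 0.09 log2 against 0.0064 for all genes. Gabra2 was the only member at an unadjusted p under 0.05 and the only one without overlap. Gabrr1, a GABA receptor subunit found in bipolar cells, was at 55.7, 48.8, 55.4 and 55.2 FPKM at 18 months and 44.7, 45.3 and 53.8 FPKM in mutants, with overlap (log2 0.16, SE 0.15).

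Gabra2 is also known to vary in level between C57BL/6 substrains, as is Nnt, a mitochondrial transhydrogenase that C57BL/6J mice lack. Nnt had 2 to 14 reads per library at 18 months and 3 to 8 in mutants, at most 0.119 FPKM, so it separated neither group. Of 6 tested genes from a list of those known to vary between substrains or colonies, 3 were higher and 3 lower, with a median of 0.0027 log2, against 5 and 1 without 18-month replicate 1 and 0 and 6 without 18-month replicate 4. Ide, the insulin-degrading enzyme, and Fgfbp3, an FGF-binding protein, lie near each other on chromosome 19 and are known to vary in copy number. Both had their highest value over the 7 libraries in 18-month replicate 4, at 18.1 FPKM for Ide and 8.54 FPKM for Fgfbp3, against at most 13.4 and 5.26 FPKM in the others. The part of genetic background in these results was not tested.

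Slc15a2 encodes a proton-coupled peptide transporter, PEPT2, which in the retina is found in Müller glia. It lies at chr16:36750177-36784962. Its level was 7.49, 9.43, 5.91 and 7.21 FPKM at 18 months, and 3.18, 2.82 and 3.12 FPKM in mutants. Every 18-month library was above every mutant library, and the means were 7.51 ± 1.45 FPKM (SD, n = 4) and 3.04 ± 0.189 FPKM (SD, n = 3), a ratio of 2.47. On the log2 scale the limma difference was 1.06 (SE 0.19, adjusted p = 0.988), against an adjusted p of 0.603 by edgeR and 3.13e-05 by DESeq2. Over 18 alternatives the adjusted p ranged from 3.13e-05 to 1. The difference was 1.02 within the high-Malat1 libraries and 1.07 within the low-Malat1 libraries.

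Wildtype retinas at 12 months had Slc15a2 at 6.11, 6.68 and 3.35 FPKM, of which the first and second fell in the 18-month range and the third near the mutants. Among 12 peptide and amino acid transporters tested, 7 were higher and 5 lower at 18 months, with a median of 0.001 log2. The tally was 4 and 8 without 18-month replicate 3 and 5 and 7 without mutant replicate 2, so it had no stable side. Slc15a2 was the only one at an unadjusted p under 0.05. Slc15a4, a lysosomal peptide and histidine transporter of the same family, was at 3.38 to 3.55 FPKM at 18 months and 2.81 to 3.39 FPKM in mutants (log2 0.11, SE 0.07), with overlap. The Müller glia list as a whole had 6 genes higher and 16 lower of 22 (median -0.03). Without mutant replicate 3 it had 13 higher and 9 lower (median 0.02), and 3 higher and 19 lower without mutant replicate 1 (median -0.12). Within the high-Malat1 libraries 14 of 22 were higher, and within the low-Malat1 libraries 16 of 22 were lower.

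Etv4 encodes a Pea3-family ETS transcription factor, which acts downstream of FGF receptors and MAP kinase. Its level was 1.86, 2.07, 1.79 and 1.75 FPKM at 18 months, and 3.30, 2.72 and 3.001 FPKM in mutants. The ranges were separate, with means of 1.87 ± 0.142 (SD, n = 4) and 3.01 ± 0.289 FPKM (SD, n = 3), 1.61-fold apart. By limma the log2 difference was -0.48 (SE 0.09, adjusted p = 1), and DESeq2 gave an adjusted p of 0.0436, within a range of 0.0436 to 1 over 17 alternatives. The 12-month wildtype libraries, at 2.89, 2.503 and 2.15 FPKM, were above all 18-month libraries, and the first was within the mutant range. Within the high-Malat1 libraries the difference was -0.56 and within the low-Malat1 libraries -0.46.

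The list of Pea3 factors, FGF receptors and feedback inhibitors leaned the same way, with 13 of 17 genes lower at 18 months and a median of -0.09 log2. Only Etv4 was at an unadjusted p under 0.05. Spry1, a feedback inhibitor of receptor tyrosine kinases, was at 1.85, 1.51, 1.95 and 1.15 FPKM and at 1.94, 2.09 and 2.25 FPKM, with overlap (log2 -0.25, SE 0.12). Fgfr1, an FGF receptor, was at 2.53 to 3.01 FPKM at 18 months and 3.09 to 3.32 FPKM in mutants, without overlap (log2 -0.15, SE 0.12). With any 1 of the 7 libraries left out, 12 to 14 of the 17 were lower.

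Trib3 encodes a pseudokinase induced by ATF4 and CHOP in the integrated stress response, the pathway that slows protein synthesis under stress. Its level was 3.77, 4.35, 4.61 and 4.24 FPKM at 18 months, and 6.10, 5.43 and 7.57 FPKM in mutants. Every mutant library was above every 18-month library, with means of 6.37 ± 1.10 FPKM (SD, n = 3) and 4.24 ± 0.349 FPKM (SD, n = 4), 1.501-fold apart. By limma the log2 difference was -0.48 (SE 0.10, adjusted p = 1), and DESeq2 gave an adjusted p of 0.0915. At 12 months wildtype retinas had 5.67, 5.38 and 5.45 FPKM, at the lower end of the mutant values.

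Of 22 integrated stress response genes tested, 17 were lower and 5 higher at 18 months (median -0.10), and Trib3 alone was at an unadjusted p under 0.05. Atf4, the transcription factor at the centre of the pathway, was at 106 to 132 FPKM at 18 months and 120 to 150 FPKM in mutants, with overlap (log2 -0.19, SE 0.10). Atf3, a factor induced by ATF4, was at 7.79 to 8.45 FPKM at 18 months and at 8.13, 9.69 and 13.1 FPKM in mutants (log2 -0.29, SE 0.16). The lean of the list held within the low-Malat1 libraries (17 of 22 lower) and not within the high-Malat1 libraries (10 of 22 lower). A composite element for ATF4, TGATGNAA on either strand, was present in the 250 bases before the start of 8 of 23 list genes with a RefSeq promoter (34.8%) and of 3.91% of 27025 genes. Trib3 was not among the 8, with only this window scanned. The list was made of genes of this pathway, so the share describes their letters and not these libraries.

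Cnih2 encodes cornichon-2, an auxiliary subunit that slows the gating of AMPA-type glutamate receptors. Its level was 13.3, 13.1, 12.2 and 12.8 FPKM at 18 months, and 16.03, 15.8 and 15.1 FPKM in mutants. The difference was small but without overlap, from 12.9 ± 0.453 FPKM (SD, n = 4) to 15.7 ± 0.484 FPKM (SD, n = 3), or 1.22-fold. By limma the log2 difference was -0.27 (SE 0.06, adjusted p = 1). The adjusted p ranged from 0.0719 to 1 over 18 alternatives. Wildtype retinas at 12 months, at 14.8, 14.7 and 16.1 FPKM, were above all 18-month libraries too.

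The AMPA receptor subunits and their partners had no common direction, with 11 higher and 9 lower of 20 (median 0.0029), against 7 and 13 without mutant replicate 3. Gria1, a pore-forming subunit, was at 8.84 to 9.95 FPKM at 18 months and 8.12 to 8.70 FPKM in mutants, without overlap (log2 0.11, SE 0.09). Cacng5, an auxiliary subunit, was at 8.28 to 9.82 FPKM and 9.90 to 10.1 FPKM, also without overlap (log2 -0.09, SE 0.07). Neither was at an unadjusted p under 0.05.

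**Figure D3:**
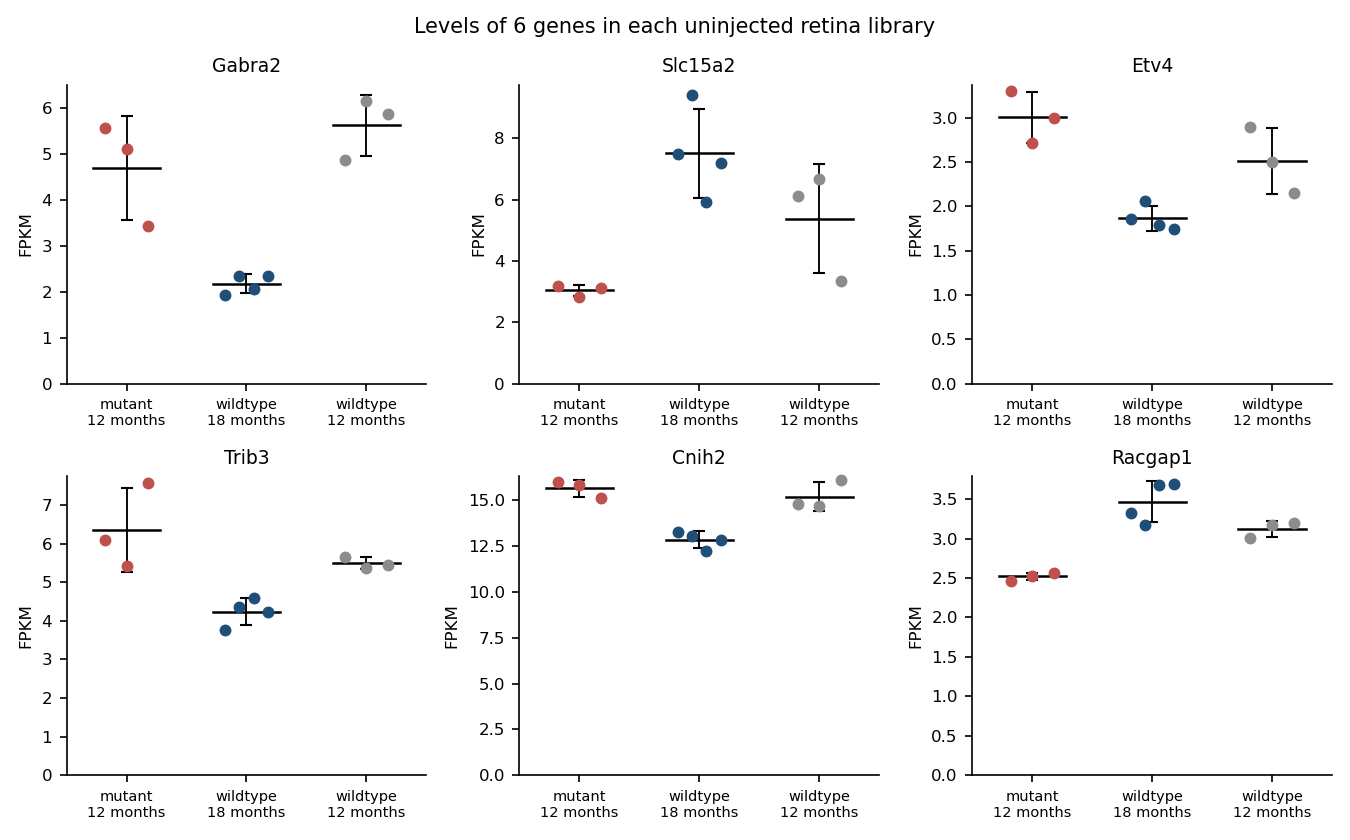
FPKM (y axes, from 0) of Gabra2, Slc15a2, Etv4, Trib3, Cnih2 and Racgap1 in each library, with group means (lines) and ± 1 SD (bars), for 3 mutants at 12 months, 4 wildtypes at 18 months and 3 wildtypes at 12 months. The first 2 groups do not overlap in any of the 6 panels. In the Gabra2, Etv4, Trib3 and Cnih2 panels the 12-month wildtype libraries also lie above all 18-month libraries.

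Elovl2 itself was at 24.02, 23.9, 23.9 and 23.9 FPKM at 18 months, and 19.7, 20.6 and 21.9 FPKM in mutants. Every 18-month library was above every mutant library, with a ratio of means of 1.15. The limma log2 difference was 0.20 (SE 0.07, unadjusted p = 0.0157, adjusted p = 1). At 12 months wildtype retinas had 19.4, 23.3 and 21.1 FPKM, which covers the mutant range. A substitution need not change the level of a transcript, so this level does not check the genotype labels.

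Genes of fatty acid elongation and desaturation lay close to their mutant levels, with 14 higher and 7 lower of 21 at 18 months (median 0.03), which turned to 8 and 13 without mutant replicate 1 (median -0.01). Acsl6, an acyl-CoA synthetase that activates DHA, was at 26.01 to 27.8 FPKM at 18 months and 24.8 to 25.1 FPKM in mutants, without overlap (log2 0.09, SE 0.06). Peroxisomal beta-oxidation, the last step of DHA synthesis, had 12 higher and 7 lower of 19 (median 0.0074), and all groups overlapped. Genes of DHA uptake and incorporation into phospholipids had 10 higher and 9 lower of 19 (median 0.0044). Sterol synthesis had 6 higher and 17 lower of 23 (median -0.04), and 0 were at an unadjusted p under 0.05.

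The region around Elovl2 was described because a mutant line can carry linked variants. Within 5 Mb of the gene 35 genes could be tested: 23 lay higher and 12 lower at 18 months (median 0.02), and 0 were at an unadjusted p under 0.05. The 5 with the smallest p included Rnf182, a ubiquitin ligase, at 2.15 to 2.66 FPKM at 18 months and 1.89 to 1.97 FPKM in mutants, without overlap (log2 0.20, SE 0.13). Tbc1d7, a subunit of the TSC complex that restrains mTORC1, was at 3.56 to 4.03 FPKM and 4.13 to 4.31 FPKM, also without overlap (log2 -0.12, SE 0.07). The groups overlapped for the other 3, Gm2233, 5033430I15Rik and Gfod1, with differences between -0.14 and 0.17 log2.

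Racgap1 encodes a subunit of centralspindlin, the complex that organises the midzone in cell division. It was at 3.32, 3.17, 3.68 and 3.70 FPKM at 18 months, and 2.47, 2.53 and 2.56 FPKM in mutants. All 18-month libraries were above all mutant libraries, with means 1.38-fold apart, and the mutant libraries lay close together. Limma gave a log2 difference of 0.34 (SE 0.07, adjusted p = 1), and DESeq2 gave an adjusted p of 0.00659, within a range of 0.00659 to 1 over 17 alternatives. The difference was 0.35 within both the high-Malat1 and the low-Malat1 libraries, where its sign was fixed by the lack of overlap. Wildtype libraries at 12 months were at 3.01, 3.17 and 3.20 FPKM, all above the mutants.

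Ect2 and Prim1, which also have roles in cell division, were chosen after values were seen, and no list of such genes was examined. Ect2, the exchange factor that binds Racgap1, was at 2.03, 2.59, 1.99 and 2.25 FPKM at 18 months and 1.09, 1.54 and 1.41 FPKM in mutants, without overlap (log2 0.46, SE 0.12, unadjusted p = 0.00404). Prim1, the catalytic subunit of DNA primase, was at 2.79 to 3.70 FPKM and 2.46 to 2.54 FPKM, without overlap (log2 0.30, SE 0.08, unadjusted p = 0.00509). Mad2l1bp, which silences the spindle checkpoint, was among the genes named for lack of overlap. It lay on the other side, at 6.10 to 7.58 FPKM at 18 months and 8.56 to 9.45 FPKM in mutants (log2 -0.33, SE 0.08, unadjusted p = 0.00299). By limma and DESeq2 none of these 3 passed after adjustment.

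Several of the leading genes lay beside each other in the genome. On chromosome 17, Dynlt1b, a dynein light chain gene, and Tmem181b-ps, a pseudogene, are neighbours at chr17:6430112-6436296 and chr17:6438524-6467022. Dynlt1b was at 5.90, 5.90, 5.66 and 6.42 FPKM at 18 months, and 9.44, 7.92 and 7.89 FPKM in mutants. All 18-month libraries were below all mutant libraries (log2 -0.43, SE 0.10, unadjusted p = 0.00187). Tmem181b-ps was at 4.59, 6.56, 6.55 and 4.14 FPKM at 18 months, and 13.4, 9.16 and 8.70 FPKM in mutants, again without overlap. Its log2 difference was -0.82 (SE 0.22, adjusted p = 1). With the Malat1 split as a term it was the only gene that limma called (adjusted p = 0.0032, within a range of 0.0032 to 1 over 18 alternatives). Tmem181a, the intact paralogue nearby, was at 5.59 to 6.55 FPKM and 6.04 to 6.33 FPKM, with overlap (log2 -0.0094, SE 0.08). Both Dynlt1b and Tmem181b-ps belong to families of near-identical copies, so their single levels are uncertain. At 12 months wildtype retinas had Dynlt1b at 7.45 to 10.3 FPKM, like the mutants.

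On chromosome 13, 3110070M22Rik (minus strand, chr13:119487261-119488383) overlaps the start of Tmem267 (plus strand, chr13:119488039-119611059), which encodes a membrane protein. Tmem267 was at 3.20, 3.77, 2.32 and 4.73 FPKM at 18 months, and 1.4201, 1.61 and 1.09 FPKM in mutants. The groups did not overlap, and the means differed 2.55-fold. The limma log2 difference was 0.90 (SE 0.21, adjusted p = 1), and DESeq2 gave an adjusted p of 0.00577, within a range of 0.00577 to 1 over 17 alternatives. 3110070M22Rik was at 6.05, 3.92, 3.44 and 4.30 FPKM and at 2.42, 2.53 and 2.37 FPKM, also without overlap (log2 0.64, SE 0.14, unadjusted p = 0.00118). The strand setting of the counting is not given in the sources used here, so reads in the overlap cannot be assigned to 1 of the 2 genes.

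On chromosome 15, the long noncoding RNA genes Gm28876, Gm28265 and Gm10830 lie within chr15:103096151-103105069, and the last of these overlaps Gm28265 on the opposite strand. Gm28265 was at 1.41, 1.45, 2.5002 and 1.62 FPKM at 18 months, and 0.766, 0.652 and 0.628 FPKM in mutants. No value was shared in range between the groups (log2 0.69, SE 0.16, unadjusted p = 0.00142), and 12-month wildtype libraries, at 0.362 to 0.832 FPKM, were near the mutants. Gm28876 was at 6.61 to 14.4 FPKM and 3.06 to 5.47 FPKM (log2 0.93, SE 0.30), and Gm10830 at 1.39 to 3.23 FPKM and 0.582 to 0.745 FPKM (log2 0.82, SE 0.23). Replicate 3 at 18 months had the highest value of all 3 genes.

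**Figure D4:**
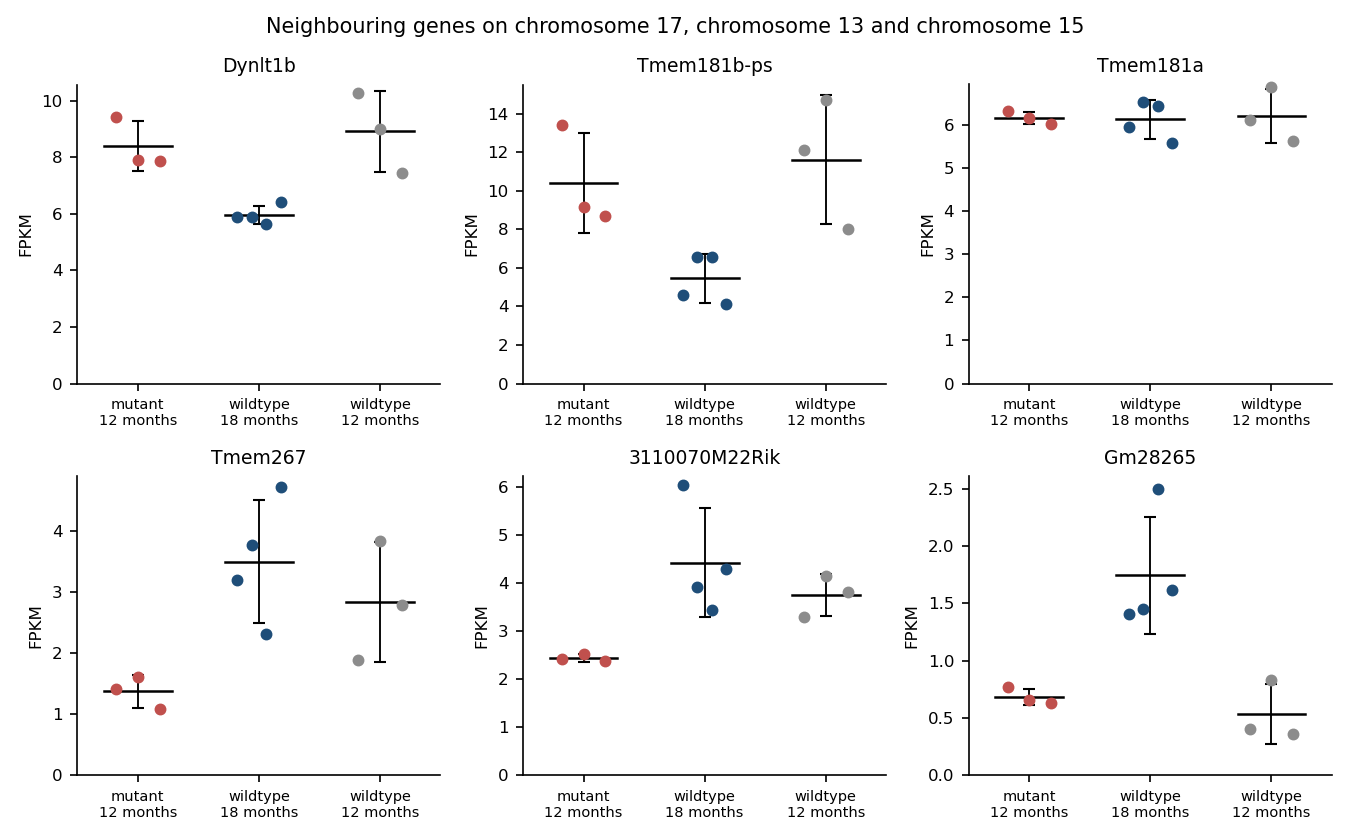
FPKM (y axes, from 0) of Dynlt1b, Tmem181b-ps and Tmem181a on chromosome 17, of Tmem267 and 3110070M22Rik on chromosome 13 and of Gm28265 on chromosome 15, in each library, with group means (lines) and ± 1 SD (bars). The mutant (n = 3) and 18-month wildtype (n = 4) libraries overlap only in the Tmem181a panel. Wildtype at 12 months (n = 3) is shown beside them.

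Copies of sex chromosome genes were also among the leading differences, although Y-linked single-copy genes were at 0. Gm21742, an unprocessed pseudogene annotated on the Y chromosome, had 10, 1, 5 and 2 reads at 18 months and 36, 64 and 27 reads in mutants. Its level was 0.541 ± 0.503 FPKM (SD, n = 4) and 3.54 ± 0.388 FPKM (SD, n = 3), without overlap. The limma log2 difference was -1.61 (SE 0.32, adjusted p = 1), and DESeq2 gave an adjusted p of 0.0185, within a range of 0.0185 to 1 over 17 alternatives. Mid1-ps1, a Y copy of the X-linked gene Mid1, lay higher at 18 months, at 3.35 to 6.39 FPKM against 1.38 to 3.13 FPKM (log2 1.10, SE 0.28). Gm21887, beside Mid1 on the X chromosome, was at 10.2 to 13.2 FPKM and 1.79 to 7.35 FPKM (log2 1.15, SE 0.33). Mid1, a ubiquitin ligase that spans the boundary of the pseudoautosomal region, was at 2.60 to 3.28 FPKM and 3.26 to 4.53 FPKM, with overlap (log2 -0.25, SE 0.14). Reads of these genes can be shared among copies, so single levels are uncertain.

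Immediate early genes, which neurons and glia transcribe within minutes of a stimulus, leaned towards lower levels at 18 months. Of 14 tested, 12 were lower and 2 higher, with a median of -0.15 log2, and 3 of the 12 were at an unadjusted p under 0.05. Over all genes tested 46.8% were lower, and 1.1% were lower at that p. Dusp1, a phosphatase that inactivates MAP kinases, was at 7.83, 6.56, 6.98 and 7.60 FPKM at 18 months, and 8.43, 10.02 and 10.3 FPKM in mutants. The groups did not overlap, with means 1.32-fold apart (limma log2 -0.36, SE 0.09, adjusted p = 1). Fos, an AP-1 subunit, was at 5.63, 6.38, 5.22 and 5.73 FPKM and at 6.34, 10.6 and 7.79 FPKM, with overlap (log2 -0.43, SE 0.15, unadjusted p = 0.0143). Zfp36, which destabilises messenger RNAs, was at 0.824 to 1.57 FPKM and 1.64 to 2.15 FPKM, without overlap (log2 -0.33, SE 0.13, unadjusted p = 0.0308). Klf6, a zinc finger factor, was at 5.76 to 6.82 FPKM at 18 months and 5.41 to 5.66 FPKM in mutants, in the other direction (log2 0.14, SE 0.11).

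The lower levels of this list were present in 10 of 14 genes within the high-Malat1 libraries and in 13 of 14 within the low-Malat1 libraries. With any 1 of the 7 libraries left out, 11 to 13 were lower. The time of day and the handling before collection are not in the labels, and their part was not tested. The Dusp1 promoter before the annotated gene is shown because it leads the list and holds the full cyclic AMP response element, TGACGTCA, in capitals. It comes from RefSeq (GRCm38.p6), chr17:26508520-26508722 on the minus strand, 203 bases.
Dusp1 promoter: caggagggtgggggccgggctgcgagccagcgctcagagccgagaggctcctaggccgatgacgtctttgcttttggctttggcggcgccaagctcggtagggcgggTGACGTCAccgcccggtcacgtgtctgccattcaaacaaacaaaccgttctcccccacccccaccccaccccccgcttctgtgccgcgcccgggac
That element, whose letters read the same on both strands, was in the 250 bases before the RefSeq start for 2 of 19 list genes with a promoter, Dusp1 and Btg2 (10.5%), and for 1.77% of 27025 genes. A match describes the letters only.

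Mir132, whose microRNA is induced by neuronal activity, was at 1, 0, 5 and 1 reads at 18 months and 8, 11 and 7 reads in mutants. The groups did not overlap (log2 -1.75, SE 0.46, unadjusted p = 0.00361), on very few reads. The libraries were poly(A)-selected, so these reads come from longer transcripts over the hairpin and do not measure the mature microRNA. Its main mature form, from RefSeq, is shown with the seed (bases 2 to 8) in capitals to identify the locus.
mmu-miR-132-3p: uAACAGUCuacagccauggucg

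Retinal ganglion cells, the output neurons of the retina, had the most one-sided of the neuronal lists described here. Of 22 markers, 20 were lower and 2 higher at 18 months, with a median of -0.11 log2, and 3 were at an unadjusted p under 0.05. Over all genes tested 46.8% were lower, and 1.1% were lower at that p. Nefm, a neurofilament subunit, was at 17.9, 20.6, 18.5 and 19.99 FPKM at 18 months, and 22.9, 22.1 and 20.7 FPKM in mutants, just without overlap (log2 -0.18, SE 0.07, unadjusted p = 0.0245). Rbpms2, an RNA-binding protein of ganglion cells, was at 8.06 to 9.75 FPKM and 10.02 to 11.7 FPKM, without overlap (log2 -0.28, SE 0.13). Pou4f1, the transcription factor Brn3a, was at 6.91 to 8.74 FPKM and 8.64 to 10.7 FPKM, with overlap (log2 -0.26, SE 0.11, unadjusted p = 0.0444). Pou4f3, its relative Brn3c, was at 1.70 to 2.25 FPKM and 2.48 to 2.84 FPKM, without overlap (log2 -0.26, SE 0.16).

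The ganglion cell list moved with the Malat1 split. Within the low-Malat1 libraries 20 of 22 markers were lower at 18 months, with a median of -0.12, and within the high-Malat1 libraries 11 were lower and 11 higher, with a median of -0.0005. Left out 1 at a time, the libraries gave 16 to 21 lower. The summed level of the list was 530 to 617 FPKM at 18 months and 554 to 667 FPKM in mutants, with overlap. Wildtype retinas at 12 months spanned 493 to 745 FPKM.

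The rod, cone and bipolar lists had medians closer to 0 over all 7 libraries. Rod genes had 10 higher and 12 lower of 22 at 18 months (median -0.0086), but 3 and 19 without mutant replicate 1 (median -0.04) and 5 and 17 without 18-month replicate 1 (median -0.02). Nr2e3, a rod transcription factor that represses cone genes, was at 205 to 223 FPKM at 18 months and 232 to 271 FPKM in mutants, without overlap (log2 -0.21, SE 0.09, unadjusted p = 0.0483). Cone genes had 8 higher and 7 lower of 15 (median 0.0037), with the medium-wavelength opsin Opn1mw at 89.3 to 124 FPKM and 71.1 to 94.1 FPKM (log2 0.29, SE 0.13). Bipolar genes had 10 higher and 9 lower of 19 (median 0.02). Amacrine and horizontal cell genes had 6 higher and 14 lower of 20 (median -0.02), but 11 and 9 without 18-month replicate 1. In the Müller glia list, Kcnj10, the potassium channel Kir4.1, was at 12.2, 13.5, 12.2 and 12.5 FPKM at 18 months and 14.3, 14.8 and 13.8 FPKM in mutants, without overlap (log2 -0.17, SE 0.06, unadjusted p = 0.0138). Spc25, a kinetochore protein that Müller glia also transcribe, was at 28.3 to 35.5 FPKM and 36.1 to 41.5 FPKM (log2 -0.24, SE 0.13).

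Lists of glial reaction and immunity turned direction with the split. Of 11 reactive gliosis genes, 11 were higher at 18 months within the high-Malat1 libraries and 11 lower within the low-Malat1 libraries. For interferon response and class I genes, 19 of 20 were higher in the former and 17 of 20 lower in the latter. Microglia genes were higher in 13 of 17 and lower in 12 of 17. The pigment epithelium list turned the other way, with 12 of 15 lower in the high-Malat1 libraries and 13 of 15 higher in the low-Malat1 libraries. Its summed level was 379 ± 92.4 FPKM at 18 months (SD, n = 4) and 366 ± 32.6 FPKM in mutants (SD, n = 3), closer than the spread within either group. In the complement list, Cd59a, a membrane inhibitor of complement, was at 34.02 to 49.5 FPKM and 46.1 to 63.4 FPKM, with overlap (log2 -0.44, SE 0.16, unadjusted p = 0.0201). The high-Malat1 set holds 1 mutant library, replicate 1, so every difference within it rests on that library, and the split was made from the data.

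Many markers of tissue around the retina did not pass the filter on low values. Of 18 lens and ciliary body genes, 3 passed the filter on low values and were lower at 18 months (median -0.23), and of 10 oligodendrocyte genes, 3 did, with Mobp and Olig2 at 0 in all 7 libraries. The summed fibroblast list was 58.1 to 71.5 FPKM at 18 months and 70.8 to 76.8 FPKM in mutants, and its 6 tested genes were all lower (median -0.16). Most of that sum was Sparc, at 39.5 to 51.7 FPKM at 18 months and 45.9 to 56.7 FPKM in mutants. Fbln1, of the same list, was uneven between libraries. It was at 0.437 to 0.669 FPKM at 18 months and at 1.79, 5.95 and 0.653 FPKM in mutants (log2 -1.04, SE 0.75). Wildtype retinas at 12 months had Fbln1 at 12.6, 0.326 and 0.506 FPKM. The summed blood list was 54.2 to 85.6 FPKM and 39.7 to 108 FPKM. The part of these cells in the results was not tested.

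**Figure D5:**
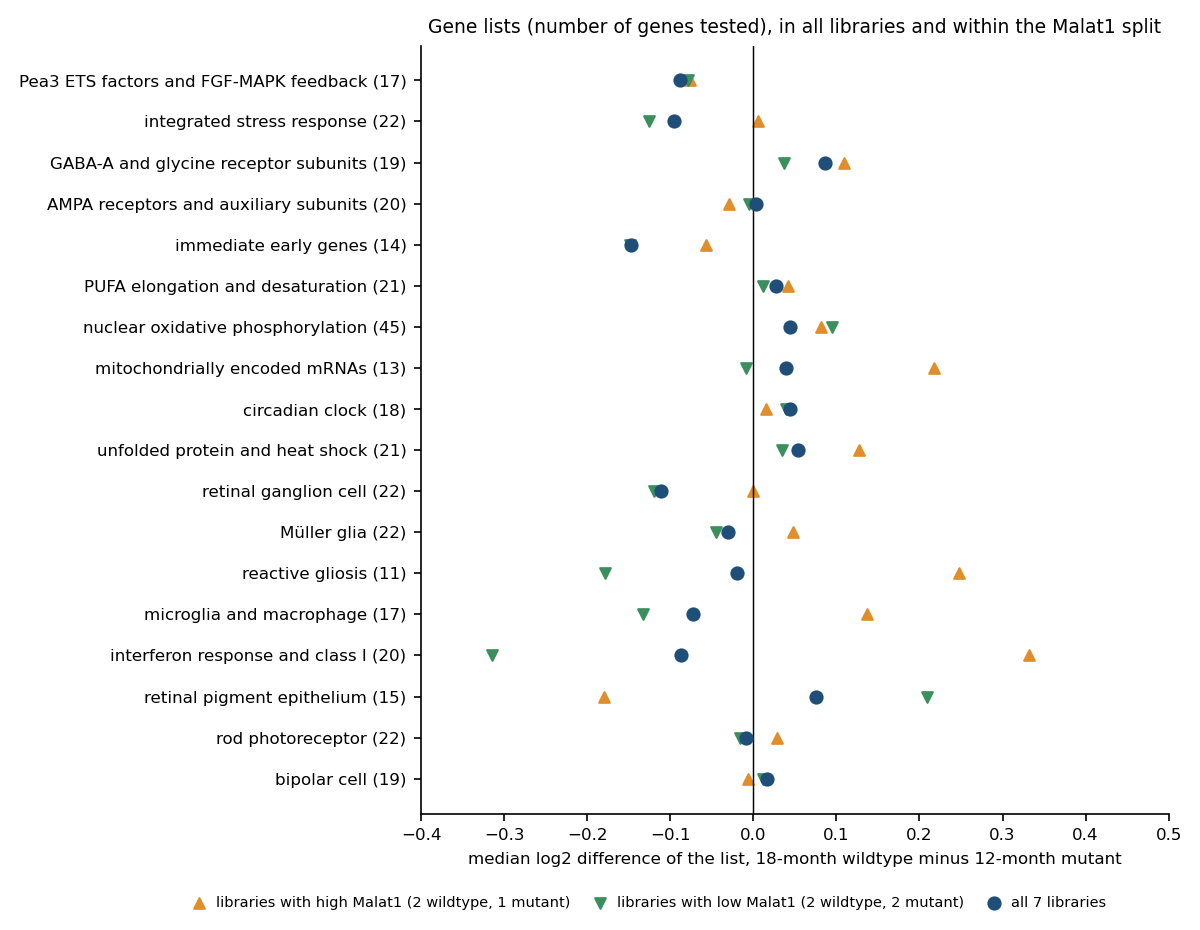
Median log2 difference (x axis, 18-month wildtype minus 12-month mutant) of 18 gene lists, with the number of genes tested in brackets: circles for all 7 libraries, triangles for the libraries with high Malat1 and with low Malat1. The gliosis, interferon, microglia and pigment epithelium lists have medians on opposite sides of 0 in the 2 sets of libraries. So do the integrated stress response, Müller glia, mitochondrial messenger RNA, rod and bipolar lists. The Pea3 list, at -0.08 in each, is among those that do not.

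Nuclear genes of oxidative phosphorylation were higher at 18 months in 39 of 45 cases, with a small median of 0.04 log2, and 0 were at an unadjusted p under 0.05. Within the Malat1 split 36 of 45 were higher in the high set and 44 of 45 in the low set. The direction rested on single libraries, since without mutant replicate 1 only 8 of 45 were higher (median -0.05), and without 18-month replicate 1 only 12 (median -0.03). Genes of the unfolded protein and heat shock responses had 14 higher and 7 lower of 21 (median 0.05), which became 10 and 11 without mutant replicate 1. Pdia4, a disulfide isomerase of the endoplasmic reticulum, was at 27.02 to 30.8 FPKM at 18 months and 22.9 to 26.1 FPKM in mutants, without overlap (log2 0.21, SE 0.08, unadjusted p = 0.028). Hspa1a, a heat-inducible Hsp70, was at 9.55 to 12.0 FPKM and 8.0005 to 10.1 FPKM, with overlap (log2 0.23, SE 0.09, unadjusted p = 0.0327). Hsp90b1, a chaperone of the same compartment as Pdia4, was at 64.9 to 69.3 FPKM and 71.9 to 73.9 FPKM, without overlap and in the other direction (log2 -0.13, SE 0.06).

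Among clock genes 13 of 18 were higher and 5 lower at 18 months (median 0.04). Without mutant replicate 2 the tally was 9 and 9 (median 0.01). Tef, a clock-controlled PAR bZIP factor, was at 34.02, 34.95, 34.2 and 34.7 FPKM at 18 months, and 31.6, 29.5 and 30.3 FPKM in mutants. The groups did not overlap (log2 0.17, SE 0.06, unadjusted p = 0.0152). Nr1d2, the repressor REV-ERB beta, was at 44.7 to 50.2 FPKM and 41.6 to 43.7 FPKM, also without overlap (log2 0.15, SE 0.08). Cry1, a repressor of the core loop, was at 18.7 to 21.7 FPKM and 16.9 to 19.5 FPKM, with overlap (log2 0.18, SE 0.08). Nfil3, of the same list, lay in the other direction with overlap (log2 -0.22, SE 0.10). Its level was 6.87 to 7.40 FPKM at 18 months and 7.30 to 10.4 FPKM in mutants.

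Further single genes stood apart without a list. Zbtb8a, a zinc finger gene, was at 5.42, 5.88, 5.67 and 5.37 FPKM at 18 months, and 4.08, 3.75 and 4.01 FPKM in mutants (log2 0.41, SE 0.09, unadjusted p = 0.000878). Zfp97, another zinc finger gene, was at 3.80, 3.39, 4.04 and 3.69 FPKM and at 2.36, 2.24 and 2.502 FPKM (log2 0.49, SE 0.10, unadjusted p = 0.000882). Apela, a peptide ligand of the apelin receptor, was at 7.99, 7.73, 9.004 and 9.38 FPKM and at 5.31, 6.42 and 6.69 FPKM (log2 0.42, SE 0.09, unadjusted p = 0.00105). None of the 3 overlapped between groups, and all 3 were higher at 18 months. Cpne8, a calcium-dependent membrane-binding copine, lay lower at 18 months, at 2.23 to 2.60 FPKM against 3.07 to 3.64 FPKM (log2 -0.32, SE 0.08, unadjusted p = 0.00316).

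Another 3 genes were chosen after their values were seen. Col4a3, a chain of basement membrane collagen, was at 6.59, 8.11, 8.88 and 7.66 FPKM at 18 months, and 5.76, 4.74 and 3.41 FPKM in mutants, without overlap (log2 0.66, SE 0.17). Gulp1, an adaptor of engulfment, was at 4.05 to 4.58 FPKM and at 5.78 to 5.92 FPKM, without overlap (log2 -0.37, SE 0.15). Zbtb16, a zinc finger factor induced by glucocorticoids, was at 0.707 to 1.03 FPKM and 1.18 to 1.66 FPKM, without overlap (log2 -0.40, SE 0.12). Their limma adjusted p was 1 in each case.

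The injected 18-month retinas were counted in a separate table, so only their own levels can be given. In counts scaled to library size (CPM), Gabra2 was at 17.4 ± 0.655 with vehicle and 18.7 ± 3.59 with 24:5 (SD, n = 3 each). Slc15a2 was at 31.4 ± 7.45 and 31.5 ± 9.33. Etv4 was at 2.92 ± 0.162 and 2.10 ± 0.136. For Trib3 the values were 5.29 ± 0.289 and 5.90 ± 0.629, and for Cnih2 6.65 ± 0.603 and 7.58 ± 0.637. These values are on another scale than the FPKM and were not compared with them.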

How the data were processed

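Whole-retina poly(A) RNA-seq libraries were grouped by the age and genotype labels. The authors deposited FPKM values per gene for 10 uninjected retinas, with gene lengths and mm10 coordinates, and raw counts per gene for 6 injected retinas. The submitters' processing notes name mm10, DESeq2 1.42.0, featureCounts 2.0.6 and HISAT2 2.2.1, without stating what each was used for. The annotation release is not given in the sources used here.

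FPKM were tested as log2(FPKM + 1) with limma 3.58.1 (trend, robust) in R 4.3.3, for the 13786 of 54532 genes whose FPKM averaged 1 or more over 10 libraries. The fit held 3 groups, the contrast was 18-month wildtype minus 12-month mutant, and p-values were two-sided and Benjamini-Hochberg adjusted over all genes tested, with a threshold of 0.05. A difference on this scale understates the change of low genes. FPKM times gene length gave whole reads, within 0.02 of a read, for 254727 of the 254727 values above 0 (100%). edgeR 4.0.16 and DESeq2 1.42.0 were run on these reads as alternatives. Counts of the injected retinas were scaled to CPM.

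The text names the 10 genes per direction with the smallest p among those without overlap, the 5 genes Slc15a2, Etv4, Trib3, Cnih2 and Gabra2, Elovl2, genes called by 2-group limma, edgeR or DESeq2, the 5 genes of smallest p within 5 Mb of Elovl2, and up to 3 genes of smallest p per list. Genes outside this rule were chosen after their values were seen: neighbours, copies or partners of the former (Gm28438, Gm10222, Tmem181b-ps, Tmem181a, Gm28876, Gm10830, Mid1-ps1, Gm21887, Mid1, Nnt, Ect2), list members (mt-Tc, Fgfr1, Klf6, Pou4f3, Nr1d2), and Prim1, Gulp1, Zbtb16, Col4a3, Malat1, Rpe65 and Gm45846. The members and the gene lists were chosen with earlier results of these data known, so lists are described by counts and medians without a test. Exact permutation tests over libraries were run for 5 single values and adjusted together, and the p of the 2 that are sums over lists is not given. The scripts were tested on simulated data. The Malat1 split was set at the largest gap in its level, and its origin is not in the labels.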

Additional observations from a re-analysis of the deposited data

Results flagged for a closer look

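In each of these cases 1 of the 4 wildtype libraries at 18 months lay far from the other 3 by Dixon's test, among 76 genes examined this way. Chance flags about 1 in 20 groups. mt-Tc was at 93.8 FPKM in replicate 2 and at 64.1 to 66.9 FPKM in the others. Gabrr1 was at 48.8 FPKM in replicate 2, below 55.2 to 55.7 FPKM in the rest. Cacng5 was at 8.28 FPKM in replicate 1 and at 9.63 to 9.82 FPKM in replicates 2 to 4. Fgfbp3 was at 8.54 FPKM in replicate 4, against 4.04 to 4.60 FPKM in the other 3.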

How the results depend on the processing

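The count of 0 genes called became 1 with no filter on low values (Gm45846, at 0 reads in every 18-month library and 1, 2 and 1 reads in mutants), 2 with only the groups compared, 9 by DESeq2, 5 with library quality weights (Slc15a2, Gm21742, Zbtb8a, mt-Tg and Zfp97) and 1 with the Malat1 split as a term (Tmem181b-ps). It stayed at 0 with a pseudocount of 0.1, a minimum of 5 FPKM, quantile normalisation, rescaling without mitochondrial genes and edgeR, and with any of the 7 libraries left out. The 295 genes at an unadjusted p under 0.05 became 913 with no filter, 128 at a minimum of 5 FPKM, 1368 with quality weights and 750 with the Malat1 split. They were 224 to 293 with 1 of the 7 libraries left out. The share of these genes that was higher at 18 months went from 48.5% to 34.9% with no filter and to 58.5% with the Malat1 split. Leaving out a 12-month wildtype library, an alternative chosen after seeing the data, gave 3 calls without replicate 1 and 0 without replicate 2 or 3. Replicate numbers are shared between groups, but same-numbered libraries deviated apart (correlations -0.47, -0.21 and -0.34), so they were not treated as pairs. The replicate block, to which 18-month replicate 4 adds nothing because its number has no partner, gave 0 calls and 204 genes at an unadjusted p under 0.05.

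Of 74 named genes examined this way, 69 kept their direction under every alternative run. Many of the 74 were chosen because their groups do not overlap or for a small p. Leaving out a library cannot reverse a gene without overlap, so the count of 69 is no support for these genes. With 1 of the 7 libraries left out, Tmem181a was at -0.037 to 0.0286, Ide at -0.0273 to 0.1964, Fgfbp3 at -0.1368 to 0.1701, Malat1 at -0.1207 to 0.6273 and Rpe65 at -0.1197 to 0.3415. The replicate block gave 0.0286, -0.0273, -0.1368 and -0.1197 for Tmem181a, Ide, Fgfbp3 and Rpe65, and the Malat1 split gave -0.0242 for Malat1. The cause was not tested. Depth limits genes with few reads, such as mt-Tg, mt-Tr, Mir132 and Gm21742, and whether libraries are separate animals is not known.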
